A study of Homo sapiens with 54 samples.

Results

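The homologous recombination and Fanconi anemia genes were described here as a set of 36 listed genes. Each gene was read from the array cluster whose annotation gives exactly 1 gene symbol, and the cluster with the highest mean was used where a symbol had several. A cluster was found for 31 of the 36 genes, each with 1 cluster. The other 5 were not analysed here, among them RAD51D, whose cluster the annotation shares with a second symbol. The 31 genes are part of 18417 genes measured in the same way.

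RNA was measured on 54 one-colour Affymetrix arrays of NCI-H460 cells, an established human line of large cell lung carcinoma. All cells, the untreated ones included, were moved to medium without serum before treatment. The study crossed 3 pretreatments (smoke extract at 5 uM nicotine equivalent, nicotine at 5 uM, or none) with 3 therapies (6 Gy of cesium-137 radiation in a single dose, cisplatin at 1 uM, or none), the pretreatment being given 2 h before the therapy. Cells were harvested 2 h or 24 h after the therapy step, which gives 18 groups of 3 arrays that the labels call biological replicates. The groups at each time were radiation plus smoke extract, radiation plus nicotine, radiation, cisplatin plus smoke extract, cisplatin plus nicotine, cisplatin, smoke extract, nicotine, and untreated. A single cell line at a single dose of each agent limits what the groups stand for.

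Homologous recombination repairs a double-strand break by copying the sister chromatid. The broken ends are resected, the single strand is made ready with the help of the BRCA1 complexes and the strand exchange proteins, it invades the sister, and helicases and nucleases take the joined molecules apart. The Fanconi anemia pathway handles crosslinks between the DNA strands, a lesion that cisplatin makes among others. A core complex carrying the ubiquitin ligase FANCL, with the conjugating enzyme UBE2T, attaches ubiquitin to FANCI and its partner. Nucleases unhook the crosslink, recombination restores the fork, and USP1 takes the ubiquitin off again. In dividing cells much of this machinery is made and used in S and G2 phase.

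The deposited values were taken to be log2, from their range of 0.89 to 13.81, since the base is not given in the sources used here. A difference of 1 is then a 2-fold change, and levels of different genes were not set against each other because each probe set has its own response. A gene is called where limma's test, adjusted over all 18417 genes by the Benjamini-Hochberg method, gave an adjusted p under 0.05. Errors are SD over 3 arrays for a level and standard errors for a difference. Arrays of 1 group correlated at 0.979 to 0.996. The labels of radiation, cisplatin and smoke extract were checked on marker genes, whereas nicotine had no marker check. CDKN1A, the p53 target p21, was 2.39-fold higher at 2 h and 1.70-fold higher at 24 h after radiation than in untreated cells (adjusted p = 5.28e-07 and adjusted p = 0.000201), and CYP1A1, a target of the aryl hydrocarbon receptor, was 10.3-fold and 15.1-fold higher with smoke extract. CDKN1A did not pass after cisplatin at 2 h (0.895-fold, adjusted p = 0.9999) or at 24 h (1.20-fold, adjusted p = 0.358). Of 14 nucleotide excision repair genes, 2 were called higher there and 0 lower, where 2.15% of all genes were called higher and 1.65% lower. They were the p53 targets DDB2 (1.30-fold, limma, adjusted p = 0.0120) and XPC (1.39-fold, adjusted p = 0.00827). The keratin genes KRT8, KRT18 and KRT19 were high throughout, whereas EPCAM, CDH1 and the lung lineage genes NKX2-1, SFTPB, SFTPC and NAPSA lay under 6.76, the 95th percentile of 433 genes of 3 gene families taken to be silent in these cells. Of markers of other cell types, 0 of 4 leukocyte and 0 of 4 endothelial genes lay above it, but 3 of 5 fibroblast genes did (COL1A1, COL3A1 and PDGFRB). That percentile serves as a mark for values that may be near background. The mean over those families differed by more than 0.15 from the group's median on 4 arrays: replicate 3 of cisplatin at 2 h, replicate 3 of cisplatin plus smoke extract at 2 h, replicate 2 of nicotine at 24 h, and replicate 3 of radiation plus smoke extract at 24 h.

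Across all 18 groups, 29 of the 31 genes differed (limma's F test, adjusted p under 0.05), against 60.1% of all genes. The 2 that did not pass were FAN1, a nuclease of crosslink repair (adjusted p = 0.0898), and ERCC1, a subunit of the XPF nuclease (adjusted p = 0.0886). Of the 9 groups at 24 h, radiation plus smoke extract held the lowest mean for 22 of the 31 genes. The share over all genes is not given here, so this count is not a result about the set.

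**Figure D1:**
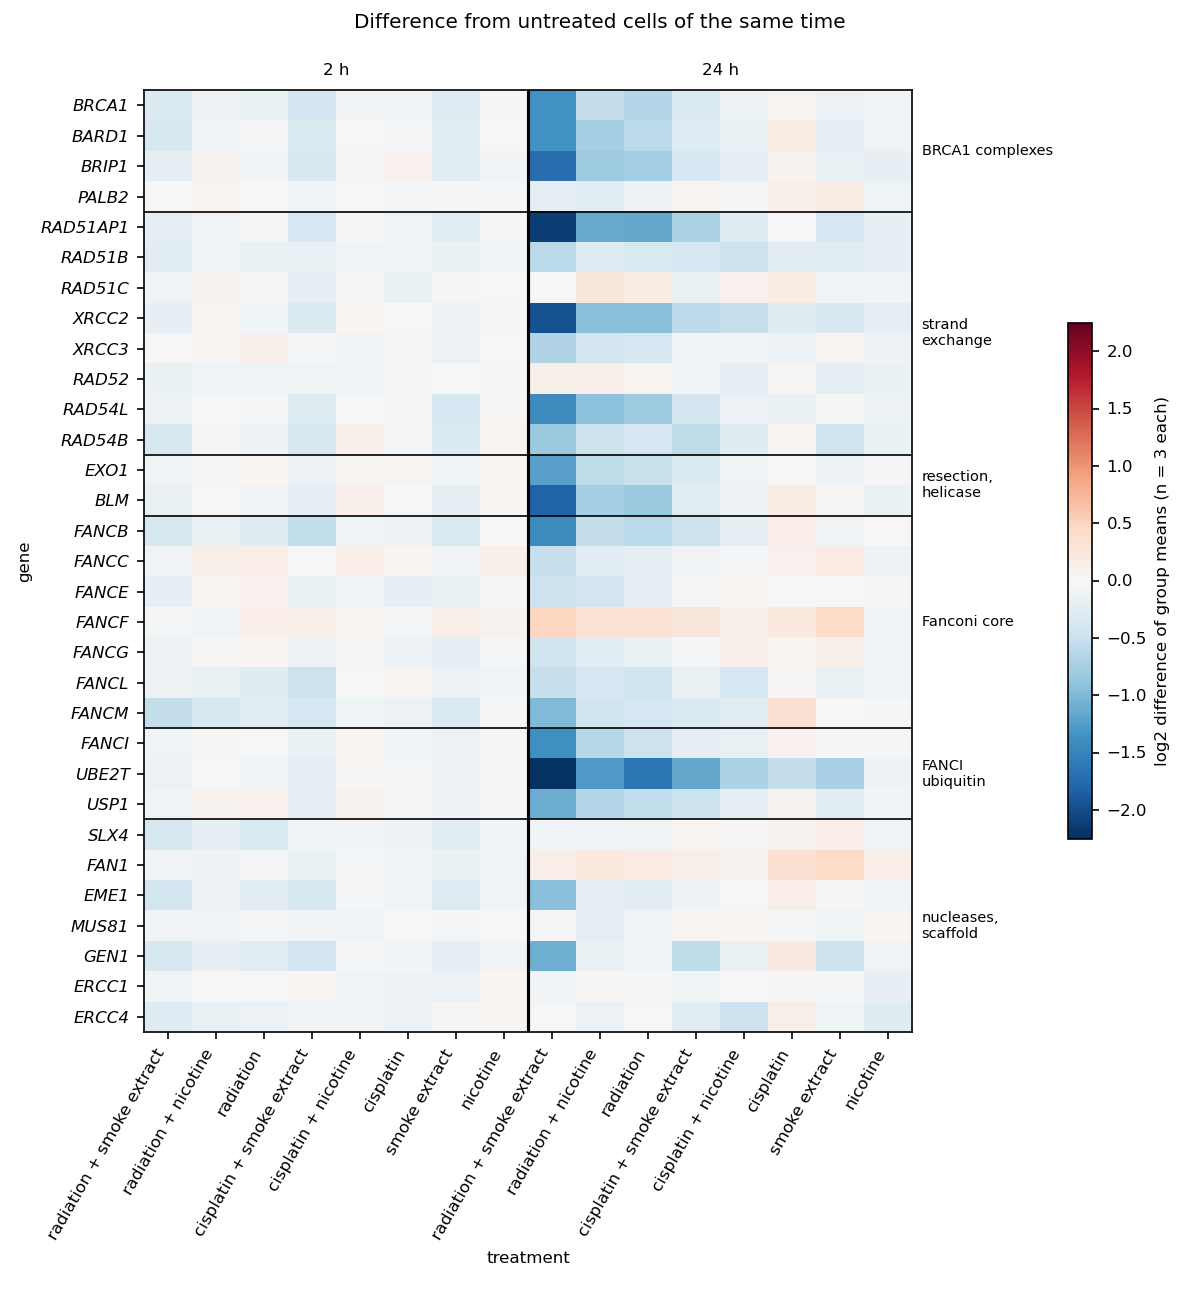
Difference of group means from untreated cells of the same time, in log2 units, for 31 genes (rows, ordered by role) and 8 treatments at 2 h and 24 h (columns; 3 arrays per group, blue lower and red higher than untreated). The darkest column is radiation plus smoke extract at 24 h, where the differences ran from -2.22 to 0.48 with a median of -0.83, against a median of -0.16 for the same treatment at 2 h.

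At 24 h after radiation alone, 16 of the 31 genes were lower and 0 were higher than in untreated cells, where 11% of all genes were called lower and 10% higher. The median difference over the 31 genes was -0.37, against 0.03 over all genes. The genes called lower lay mostly in strand exchange, the BRCA1 complexes and the ubiquitin cycle of FANCI. By role, 3 of 4 genes of the BRCA1 complexes were lower, 6 of 8 of strand exchange, 2 of 2 of resection and helicase, 3 of 3 of the ubiquitin cycle, 2 of 7 of the Fanconi core complex and 0 of 7 nucleases and their scaffold. Whether the roles differ from each other was not tested. RNA came from whole cultures, so fewer cells in the phases that make these transcripts and less RNA per cell cannot be told apart.

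UBE2T, the conjugating enzyme of the Fanconi pathway, had the largest fall. Its levels were 8.39, 8.49 and 9.37 after radiation, against 10.43, 10.33 and 10.36 in untreated cells. All irradiated arrays lay below all untreated ones, and replicate 3 stood above the other irradiated arrays. The difference was -1.62 ± 0.18, a level 3.08-fold lower (limma, adjusted p = 1.33e-09). FANCI, which receives the ubiquitin, fell by 0.48 (adjusted p = 2.20e-05). USP1, the protease that removes it, had 7.98, 7.80 and 8.17 after radiation, against 8.58, 8.48 and 8.54 in untreated cells, and fell by 0.55 ± 0.12 (adjusted p = 0.000342).

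Among the strand exchange genes, RAD51AP1, which stimulates the forming of joint DNA molecules, had 6.31, 6.53 and 6.68 after radiation, against 7.75, 7.66 and 7.56 in untreated cells. XRCC2, a strand exchange cofactor, had 8.33, 8.20 and 8.43, against 9.30, 9.21 and 9.27 in untreated cells. RAD54L, a motor protein that remodels DNA during strand invasion, had 6.50, 6.41 and 6.45, against 7.17, 7.23 and 7.34 in untreated cells. In each of the 3 genes the groups did not overlap. RAD51AP1 fell by 1.15 ± 0.15 (2.22-fold lower, adjusted p = 1.62e-07), XRCC2 by 0.94 ± 0.11 (1.92-fold, adjusted p = 1.92e-08) and RAD54L by 0.79 ± 0.12 (1.73-fold, adjusted p = 7.51e-07). The irradiated means of RAD51AP1 and RAD54L, 6.50 and 6.45, lay under the 95th percentile of the silent families. The cofactors XRCC3 and RAD51B and the motor gene RAD54B fell by 0.38, 0.33 and 0.38. RAD51C, a further cofactor, differed by 0.17 (95% interval -0.11 to 0.44) and RAD52, an annealing protein, by 0.06 (-0.12 to 0.24), and neither was called.

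BLM, the helicase mutated in Bloom syndrome, had 7.55, 7.32 and 7.51 after radiation, against 8.34, 8.19 and 8.35 in untreated cells, and fell by 0.83 ± 0.10 (1.78-fold lower, adjusted p = 1.87e-08). EXO1, a nuclease of end resection, had 10.19, 10.29 and 10.25, against 10.76, 10.77 and 10.70 in untreated cells, and fell by 0.50 ± 0.07 (adjusted p = 1.08e-07). For both genes the groups did not overlap. BRIP1, a helicase partner of BRCA1, had 7.63, 7.61 and 7.74, against 8.48, 8.37 and 8.49 in untreated cells, and fell by 0.79 ± 0.12 (adjusted p = 1.41e-06). BRCA1 itself, the ubiquitin ligase and scaffold, had 7.59, 7.49 and 7.91, against 8.35, 8.19 and 8.42 in untreated cells, and fell by 0.66 ± 0.12 (adjusted p = 4.38e-05). BARD1, its constant partner, had 7.41, 7.30 and 7.40, against 8.05, 7.94 and 7.91 in untreated cells, and fell by 0.59 ± 0.10 (adjusted p = 2.22e-05). The groups did not overlap in any of the 3. PALB2, a binding partner of BRCA1, differed by -0.11 (95% interval -0.27 to 0.05) and was not called.

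In the Fanconi core complex, FANCB had 6.54, 6.35 and 6.62 after radiation, against 7.22, 7.06 and 7.04 in untreated cells, and fell by 0.61 ± 0.14 (adjusted p = 0.000821). FANCL, the ligase subunit, fell by 0.44 ± 0.15 (adjusted p = 0.0247). The other core genes FANCC, FANCE, FANCF and FANCG and the anchor FANCM ran from -0.37 to 0.32 and were not called. FANCF had the only positive difference past 0.3 in the set, 0.32 ± 0.14, with all 3 irradiated arrays (7.51, 7.17 and 7.26) above the untreated ones (7.03, 6.94 and 7.01), yet its adjusted p was 0.0979. The nucleases GEN1, MUS81, ERCC4 and FAN1, the scaffold SLX4 and ERCC1 had differences from -0.10 to 0.18. EME1, the partner of MUS81, differed by -0.26 ± 0.11 (adjusted p = 0.0846).

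**Figure D2:**
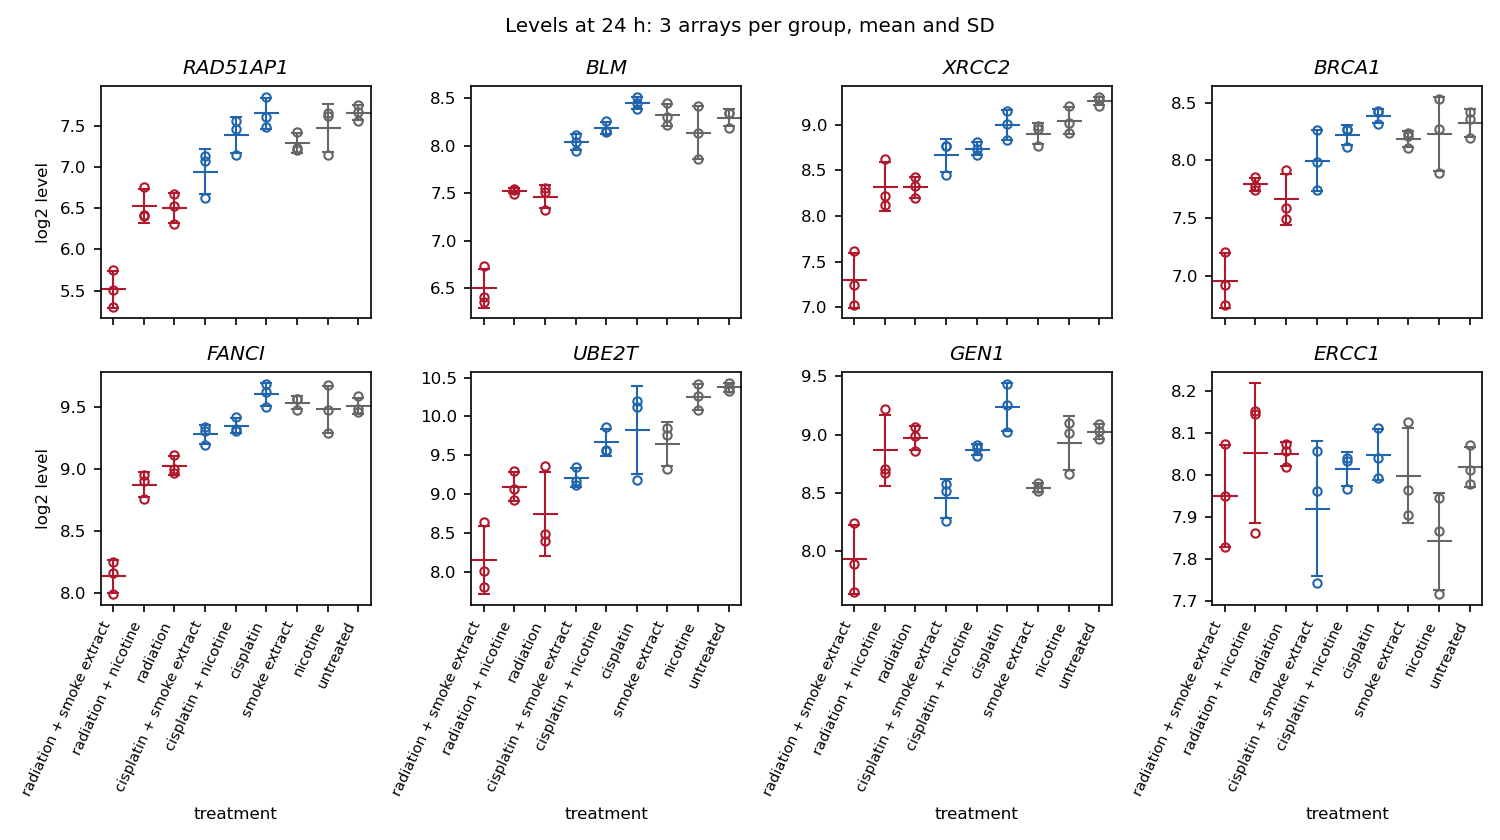
Log2 levels at 24 h of 8 genes in 9 groups, with open circles for the 3 arrays and bars for the mean and SD (red, radiation; blue, cisplatin; grey, no therapy). RAD51AP1, BLM, XRCC2, BRCA1 and FANCI have 2 steps down, 1 for radiation and a second for radiation plus smoke extract; GEN1 is lowest with radiation plus smoke extract, and ERCC1 was not called by the F test.

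The same direction was found in cells irradiated after either pretreatment, and these 3 comparisons share no array. They come from 1 fit with 1 variance estimate per gene, so their calls are not independent. In nicotine cells, radiation left 15 genes lower and 2 higher than nicotine alone, where 6.66% of all genes were called lower and 8.6% higher. In smoke extract cells it left 22 lower and 1 higher than smoke extract alone, where 9.96% were called lower and 4.22% higher. BLM had 6.41, 6.35 and 6.73 in cells given radiation plus smoke extract, against 8.22, 8.30 and 8.45 with smoke extract alone, 3.55-fold lower (adjusted p = 2.03e-19). RAD51AP1 had 5.50, 5.30 and 5.75, against 7.23, 7.43 and 7.21 with smoke extract alone, 3.41-fold lower (adjusted p = 9.54e-13). XRCC2 was 3.05-fold lower and BRIP1 2.91-fold lower, and the groups of all 4 genes were apart. The means of BLM, RAD51AP1 and BRIP1 with both agents lay under the silent-family mark of 6.76 and may be near background. In nicotine cells the largest falls were 1.15 for UBE2T (9.30, 8.93 and 9.06, against 10.42, 10.26 and 10.08 with nicotine alone), 0.95 for RAD51AP1, 0.79 for RAD54L and 0.72 for XRCC2, while FANCF (0.42 ± 0.14) and RAD52 (0.27 ± 0.09) rose with overlapping arrays. Fitted on the compared groups alone, 10 genes were called in nicotine cells instead of 17. Of the genes called lower, 13 were shared by all 3 comparisons: BRCA1, BARD1, BRIP1, RAD51AP1, XRCC2, XRCC3, RAD54L, EXO1, BLM, FANCB, FANCI, UBE2T and USP1. The 15 genes shared by radiation alone and radiation in smoke extract cells were 93.8% of the first list and 68.2% of the second. The overlap of such lists over all genes is not given here. Averaged over the 3 pretreatments, radiation left 23 of 31 genes lower (16.6% of all genes) and 3 higher (15.9% of all genes). UBE2T fell by 1.42 ± 0.10, RAD51AP1 by 1.29 ± 0.09, XRCC2 by 1.09 ± 0.07 and BLM by 1.09 ± 0.06. UBE2T was thereby 2.68-fold lower. The 3 that rose were FANCF (0.27 ± 0.08, adjusted p = 0.00693), RAD52 (0.23 ± 0.05, adjusted p = 0.000520) and RAD51C (0.20 ± 0.08, adjusted p = 0.0482), each by 1.15-fold to 1.21-fold. RAD52 was also called higher in smoke extract cells (8.21, 8.06 and 8.32, against 7.76, 8.04 and 7.74 with smoke extract alone).

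**Figure D3:**
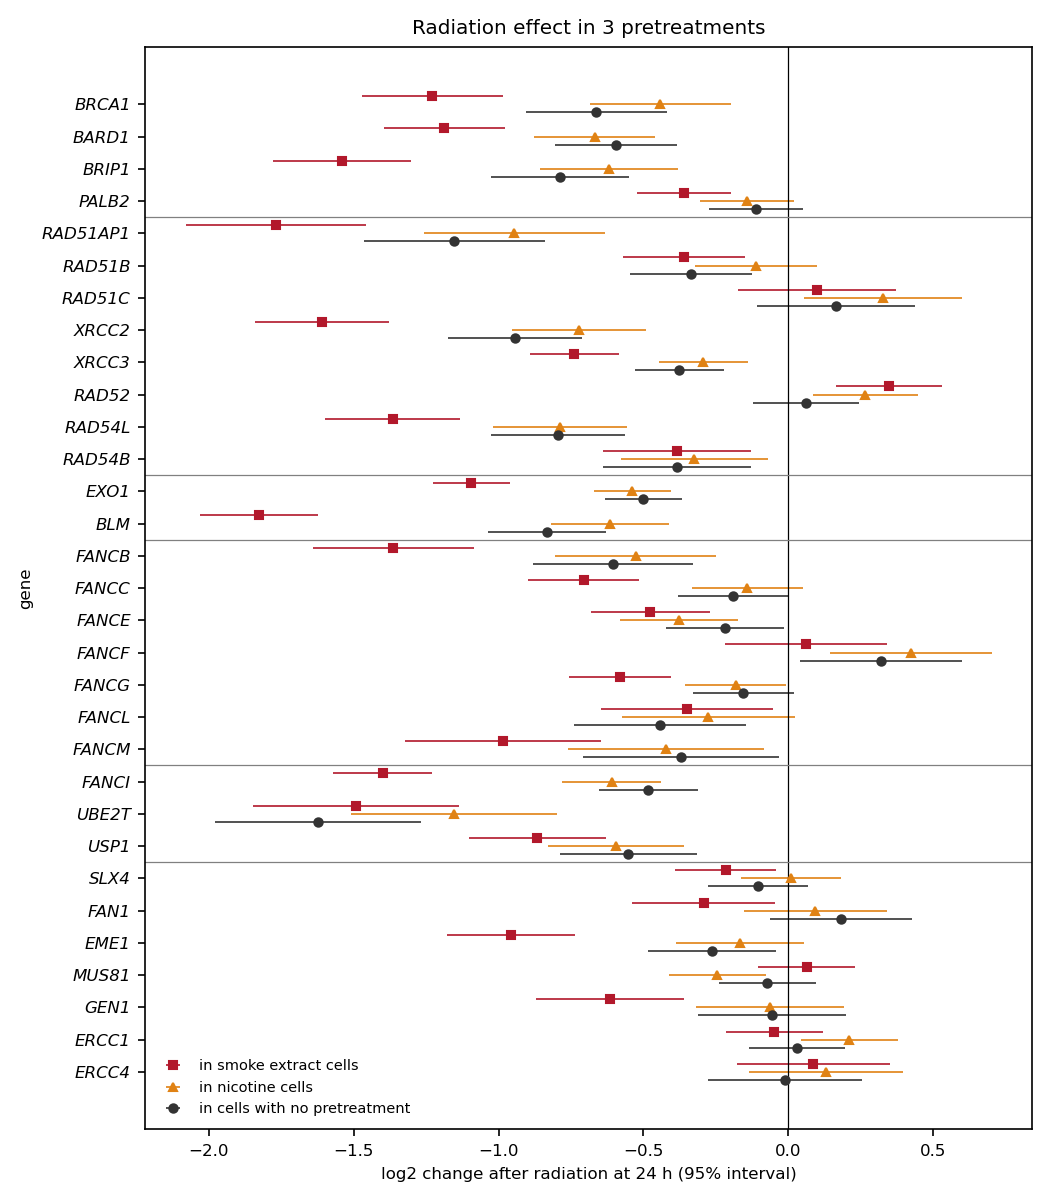
Log2 change after radiation at 24 h for 31 genes with its 95% interval, in smoke extract cells (squares), in nicotine cells (triangles) and in cells with no pretreatment (circles). Lines part the roles in the order of the heat map. The squares lie left of the circles by 0.99 for BLM and 0.92 for FANCI, while UBE2T lies at -1.49 and -1.62 and RAD54B at -0.38 in both.

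Promoters are shown for the 3 genes with the largest falls after radiation, averaged over the pretreatments, among those with an E2F core match in the 250 bases before the start. The E2F core is the recognition sequence of factors that time S-phase transcription. Genes that fell as much without such a match there, UBE2T, XRCC2 and BRIP1, are not shown. The promoter of the crosslink nuclease FAN1, which had a mean radiation change near 0, is shown beside them as one without a match. Sequences are the 250 bases before the annotated start, 5′ to 3′ on the coding strand (plus strand for all 4), from RefSeq's GRCh38.p14 table, with matches in capitals: RAD51AP1 at chr12:4538640-4538889, BLM at chr15:90717096-90717345, RAD54L at chr1:46247438-46247687 and FAN1 at chr15:30903602-30903851.
RAD51AP1: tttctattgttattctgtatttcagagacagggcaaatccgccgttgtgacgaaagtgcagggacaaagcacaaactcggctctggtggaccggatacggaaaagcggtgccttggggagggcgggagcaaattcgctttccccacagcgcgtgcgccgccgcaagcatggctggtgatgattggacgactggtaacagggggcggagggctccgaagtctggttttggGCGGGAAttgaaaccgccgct
BLM: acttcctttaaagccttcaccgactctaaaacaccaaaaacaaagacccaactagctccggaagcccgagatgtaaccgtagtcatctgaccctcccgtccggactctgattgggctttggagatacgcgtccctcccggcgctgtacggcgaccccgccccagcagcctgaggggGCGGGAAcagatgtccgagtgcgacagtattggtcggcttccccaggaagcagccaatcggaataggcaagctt
RAD54L: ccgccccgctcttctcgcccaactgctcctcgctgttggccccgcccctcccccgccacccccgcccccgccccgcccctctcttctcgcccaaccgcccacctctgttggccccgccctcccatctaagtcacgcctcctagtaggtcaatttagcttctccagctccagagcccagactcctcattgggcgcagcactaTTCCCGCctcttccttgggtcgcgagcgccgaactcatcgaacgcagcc
FAN1: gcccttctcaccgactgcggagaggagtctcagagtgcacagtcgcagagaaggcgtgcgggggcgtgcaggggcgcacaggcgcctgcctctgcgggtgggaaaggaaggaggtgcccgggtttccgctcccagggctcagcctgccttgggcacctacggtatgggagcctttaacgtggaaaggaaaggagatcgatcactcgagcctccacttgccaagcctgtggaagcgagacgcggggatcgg
The match begins 21 bases before the start in RAD51AP1, 74 in BLM and 49 in RAD54L. The motif was searched as TTCCCGC and in 3 variant forms, namely TTCGCGC, then also TTGGCGC, and finally also TTGCCGC, on either strand, in windows of 250 bases before to 50 after each start. A window was found for 29 of the 31 genes, 41 windows in all, and 22 of them (53.7%) held the motif, against 3278 of 20109 windows (16.3%) of the genes on the array. A match is a description of letters and not a site of binding. Of other promoter elements, the CHR element (TTTGAA, or with a change TTCGAA) was in 14.6% of the windows, against 13.6% of all, and CCAAT in 36.6%, against 34.5%; all were searched on both strands. Of the 19 genes with an E2F core match, 16 were lower and 2 higher after radiation averaged over the pretreatments. Of the 10 without one, 5 were lower and 1 higher. UBE2T, with the largest fall, was among those without a match, and FANCF and RAD52, which rose, were among those with one.

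**Figure D4:**
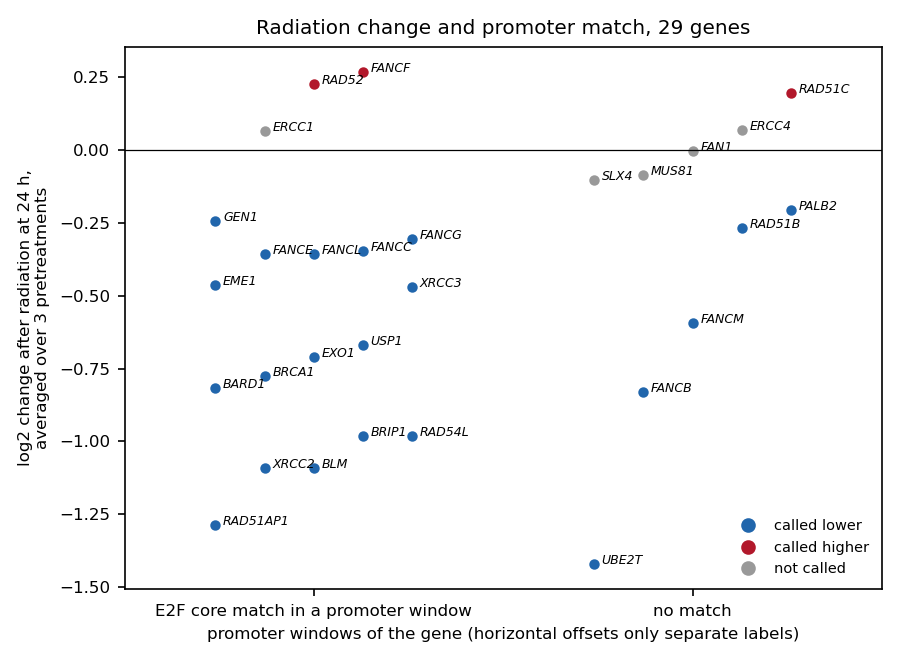
Log2 change after radiation at 24 h averaged over 3 pretreatments (vertical axis) for 29 genes, parted by whether any of the gene's promoter windows holds an E2F core match; colour gives the call. With a match the changes run down to -1.29 for RAD51AP1, and without one they run from -1.42 for UBE2T to 0.20 for RAD51C.

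Smoke extract given before radiation took the genes lower than radiation alone. At 24 h, 19 of 31 genes were lower and 0 higher in cells given radiation plus smoke extract than in cells given radiation, where 5.68% of all genes were called lower and 2.55% higher. The median difference was -0.45 over the 31 genes and -0.01 over all genes. By role, 3 of 4 genes of the BRCA1 complexes, 5 of 8 of strand exchange, 2 of 2 of resection and helicase, 4 of 7 of the Fanconi core, 3 of 3 of the ubiquitin cycle and 2 of 7 nucleases were called lower.

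GEN1, a resolvase that cuts joined DNA molecules, had 7.90, 7.66 and 8.25 in cells given radiation plus smoke extract, against 8.86, 8.99 and 9.07 with radiation alone. It fell by 1.04 ± 0.13 (2.05-fold lower, adjusted p = 1.65e-08), although radiation alone had moved it by only -0.06 (95% interval -0.31 to 0.20). XRCC2 had 7.24, 7.03 and 7.62 with both agents, against 8.33, 8.20 and 8.43, and fell by 1.02 ± 0.11 (adjusted p = 2.23e-09). RAD51AP1 had 5.50, 5.30 and 5.75, against 6.31, 6.53 and 6.68 with radiation alone, and fell by 0.99 ± 0.15 (adjusted p = 4.33e-06). BLM had 6.41, 6.35 and 6.73, against 7.55, 7.32 and 7.51, and fell by 0.97 ± 0.10 (adjusted p = 3.32e-10). In these 4 genes no array with both agents reached the lowest array with radiation alone. BRIP1 fell by 0.92, FANCI by 0.89, FANCB by 0.83, BARD1 by 0.77, EXO1 by 0.72, BRCA1 by 0.70, EME1 by 0.67, RAD54L by 0.62 and USP1 by 0.56. The groups overlapped for UBE2T, at 8.01, 7.81 and 8.64, against 8.39, 8.49 and 9.37 with radiation alone, though the fit called its difference of -0.60 ± 0.18 (adjusted p = 0.0228). Fitted on these groups alone, 12 genes were called instead of 19. The 12 that did not pass in the full fit were RAD51B (-0.28), FANCE (-0.24) and FANCL, PALB2, RAD51C, RAD52, FANCF, MUS81, ERCC1, ERCC4, SLX4 and FAN1, the last 10 with differences from -0.16 to 0.16. With both agents the means of 10 genes lay under the silent-family percentile of 6.76 (BARD1, BLM, BRIP1, EME1, FANCB, FANCM, RAD51AP1, RAD54B, RAD54L and XRCC3). Replicate 3 of this group stood apart in its silent-family mean (4.76) and was the least reduced array in GEN1, XRCC2, RAD51AP1 and BLM; without the arrays that stood apart, all 4 genes stayed called.

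For 11 genes the change after radiation itself was larger in smoke extract cells than in cells with no pretreatment, tested as an interaction over the 4 groups at 24 h; 0 genes went the other way. Of all genes, 1.84% had an interaction called lower and 0.733% one called higher. BLM fell by 1.83 in smoke extract cells and by 0.83 without pretreatment, an interaction of -0.99 ± 0.14 (adjusted p = 7.69e-06). FANCI fell by 1.40 and by 0.48, an interaction of -0.92 ± 0.12 (adjusted p = 1.07e-06). FANCB had an interaction of -0.76 ± 0.19 (adjusted p = 0.0229), a call that ended on leaving out any of 5 single arrays (adjusted p from 0.0535 to 0.0661). BRIP1 had one of -0.75 ± 0.17 (adjusted p = 0.00609) and EME1 one of -0.70 ± 0.15 (adjusted p = 0.00639). These 5 genes belong to 5 of the 6 roles, strand exchange being the other. XRCC2 (-0.66), EXO1 (-0.59), BARD1 (-0.59), RAD54L (-0.57), FANCC (-0.52) and FANCG (-0.43) were also called. EME1, FANCC and FANCG had not been called after radiation alone. The interaction of UBE2T was 0.13 (95% interval -0.37 to 0.63) and that of USP1 -0.31, and neither was called. BRCA1 (-0.57, adjusted p = 0.0596), GEN1 (-0.56, adjusted p = 0.0785) and RAD51AP1 (-0.62, adjusted p = 0.114) did not pass either. The count was 5 without replicate 3 of smoke extract at 24 h, 6 without replicate 1 of radiation, 7 without replicate 2 of untreated cells, and 6 where only these 4 groups were fitted. It was 17 with the silent-family mean as a covariate.

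Nicotine before radiation called none of these genes; the difference between the pretreatments in irradiated cells was not tested. Between radiation plus nicotine and radiation at 24 h, 0 of 31 genes were called by limma and 0 had an unadjusted p under 0.05, with 0.00543% of all genes called. The differences ran from -0.20 for FANCE to 0.35 for UBE2T, whose levels were 9.30, 8.93 and 9.06, against 8.39, 8.49 and 9.37 with radiation alone. The 95% intervals of all 31 differences lay within -0.41 and 0.70.

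Smoke extract alone called fewer genes, in both directions. At 24 h, 4 of 31 genes were lower and 2 higher than in untreated cells, against 7.4% and 8.67% of all genes. UBE2T had 9.76, 9.85 and 9.33 with smoke extract, against 10.43, 10.33 and 10.36 in untreated cells, and fell by 0.73 ± 0.18 (1.65-fold lower, adjusted p = 0.00296). GEN1 had 8.51, 8.54 and 8.58, against 9.09, 8.96 and 9.03, and fell by 0.48 ± 0.13 (adjusted p = 0.00612). RAD54B had 6.87, 6.96 and 6.75, against 7.37, 7.24 and 7.30, and fell by 0.45 ± 0.13 (adjusted p = 0.0104). In these 3 genes every smoke extract array lay below every untreated array. XRCC2 had 8.96, 8.77 and 8.98, against 9.30, 9.21 and 9.27, and fell by 0.36 ± 0.11 (adjusted p = 0.0266). FAN1 rose by 0.44 ± 0.12, with 7.71, 7.70 and 7.85, against 7.36, 7.15 and 7.44 (adjusted p = 0.00928). FANCF rose by 0.42 ± 0.14, with 7.46, 7.55 and 7.23, against 7.03, 6.94 and 7.01 (adjusted p = 0.0308). The groups were apart for these 3 as well, yet the calls of RAD54B, XRCC2, FAN1 and FANCF each ended on leaving out some single array, with adjusted p up to 0.0677, 0.128, 0.0824 and 0.128. BRCA1, BLM, FANCI and EXO1, which fell with radiation, differed by -0.14, 0.03, 0.03 and -0.12 with smoke extract and were not called. Set against nicotine instead of untreated cells, smoke extract left UBE2T (-0.61 ± 0.18) and GEN1 (-0.38 ± 0.13) lower and FANCF (0.52 ± 0.14), FANCC (0.29 ± 0.10) and PALB2 (0.26) higher, with 2.94% of all genes called lower and 9.81% higher. That count of 5 fell to 1 without replicate 3 of smoke extract and was 9 without replicate 3 of nicotine. Without replicate 2 of nicotine, which stood apart, FANCC differed by 0.13 (adjusted p = 0.530) and FANCF by 0.38 (adjusted p = 0.144), and neither was called.

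For smoke extract fewer genes were called at 2 h than at 24 h. Both times count from the therapy step, which came 2 h after the smoke extract. Smoke extract against untreated cells at 2 h gave 0 called of 31 by limma (3.77% of all genes). An unadjusted p under 0.05 was found for 9 of the 31, against 2075 of all 18417 genes. In 14 genes the 3 smoke extract arrays lay below the 3 untreated ones, against 14.9% of all genes. RAD54L had 6.79, 6.67 and 6.98, against 7.21, 7.20 and 7.15 in untreated cells, a difference of -0.37 ± 0.12 (adjusted p = 0.0546), and SLX4 differed by -0.25 ± 0.09 (adjusted p = 0.118). Fitted on these groups alone, 7 genes were called. Averaged over the 3 therapies, where 9 arrays stand on each side, smoke extract left 10 genes lower and 0 higher (5.06% and 4.22% of all genes). Among called genes the 4 largest falls were 0.29 ± 0.07 for RAD54B, 0.29 ± 0.08 for FANCB, 0.29 ± 0.07 for BRIP1 and 0.28 ± 0.06 for BARD1, the last with an adjusted p of 0.000665. The FANCB call ended without replicate 3 of cisplatin plus smoke extract (limma, adjusted p = 0.0545). The count ran from 7 to 14 on leaving out single arrays. BRCA1, EME1, RAD54L, GEN1, BLM and EXO1 fell by 0.14 to 0.26. At 24 h the same average had 17 genes lower and 0 higher (15.7% and 11.9% of all genes), led by GEN1 (-0.77 ± 0.07), RAD51AP1 (-0.69 ± 0.09), UBE2T (-0.65 ± 0.10) and XRCC2 (-0.57 ± 0.07).

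The changes after radiation came late. At 2 h, 0 of 31 genes were called against untreated cells (0.304% of all genes), and 3 had an unadjusted p under 0.05, against 1040 of all 18417. SLX4, the scaffold that gathers the nucleases, came nearest, with 6.89, 6.89 and 6.95, against 7.28, 7.30 and 7.18 in untreated cells (-0.34 ± 0.09, adjusted p = 0.0714), followed by EME1 (-0.26 ± 0.11, adjusted p = 0.681). Averaged over the pretreatments it was the 1 gene called, lower by 0.21 ± 0.05 (adjusted p = 0.0142; 0.793% of all genes called lower and 0.559% higher), a call that ended without replicate 1 of smoke extract (adjusted p = 0.0542) or replicate 2 of radiation plus nicotine (adjusted p = 0.0546). At 24 h SLX4 differed by -0.10 ± 0.09 and was not called. The difference between the 24 h and 2 h effects of radiation was itself called lower for 12 genes and higher for 0 (6.94% and 6.07% of all genes). It was -1.54 ± 0.25 for UBE2T (adjusted p = 2.05e-05), -1.13 ± 0.22 for RAD51AP1 (adjusted p = 0.000272), -0.89 ± 0.16 for XRCC2 (adjusted p = 0.000114) and -0.78 ± 0.14 for BLM (adjusted p = 0.000129). In untreated cells 1 gene was called over the same time. USP1 was lower at 24 h than at 2 h (8.58, 8.48 and 8.54, against 8.97, 9.01 and 8.88; -0.42 ± 0.12, adjusted p = 0.0449; 1.04% of all genes called lower and 0.885% higher). No fit without 1 of these 6 arrays called it, with adjusted p from 0.0789 to 0.194.

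Cisplatin, the crosslinking agent, called few of these genes at 1 uM. Against untreated cells 0 of 31 were called at 2 h (0.00543% of all genes) and 0 at 24 h (3.8%). An unadjusted p under 0.05 was found for 0 and 5 of the 31, against 418 and 3556 of all 18417 genes. The 95% intervals at 24 h lay within -0.90 and 0.68. The count of 0 at 24 h depended on the setting. It was 3 with the silent-family mean as a covariate and 2 without the arrays that stood apart. It was 1 with quantile normalization and 1 with genes above the median mean. It stayed at 0 without the intensity trend, with all rows, with the replicate block and with the compared groups alone. UBE2T was the lowest, at 10.12, 9.18 and 10.20, against 10.43, 10.33 and 10.36 in untreated cells (-0.54 ± 0.18, adjusted p = 0.0701), and replicate 2 was the low array. FAN1 had 7.52, 7.73 and 7.73, against 7.36, 7.15 and 7.44 in untreated cells (0.34 ± 0.12, adjusted p = 0.0992). Averaged over the pretreatments at 24 h, 3 genes were lower and 0 higher (3.22% and 1.81% of all genes): UBE2T by 0.52 ± 0.10 (adjusted p = 0.000979), XRCC2 by 0.27 ± 0.07 (adjusted p = 0.00968) and RAD51B by 0.23 ± 0.06 (adjusted p = 0.0184). The call of RAD51B ended where only the compared groups were fitted (adjusted p = 0.0609) and without replicate 1 of nicotine, replicate 2 of cisplatin or replicate 3 of cisplatin plus smoke extract (adjusted p = 0.0630, adjusted p = 0.0725 and adjusted p = 0.0553). UBE2T and XRCC2 were thus called lower after each of radiation, cisplatin and smoke extract averaged at 24 h, by 1.42, 0.52 and 0.65 for UBE2T; these averages share arrays. At 2 h the average of cisplatin called 0 genes (0.0109% of all genes), with 0 at an unadjusted p under 0.05; FANCB (-0.13) and ERCC4 (-0.12) had the smallest p. At 2 h without pretreatment these were FANCE (-0.19) and FANCG (-0.13). In smoke extract cells and in nicotine cells cisplatin called 0 of 31 at 24 h (0.0814% and 0.451% of all genes). An unadjusted p under 0.05 was found for 10 and 5 of the 31, against 2403 and 2715 of all 18417 genes. RAD54L (-0.37) and FANCI (-0.25) came nearest in smoke extract cells, and UBE2T (-0.58) and RAD51B (-0.30) in nicotine cells.

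Set directly against cisplatin at 24 h, radiation left 19 of 31 genes lower and 0 higher, where 7.91% of all genes were called lower and 5.14% higher. Leaving out any 1 of the 6 arrays gave 14 to 17 called. RAD51AP1 had 6.31, 6.53 and 6.68 after radiation, against 7.61, 7.49 and 7.85 after cisplatin (-1.15 ± 0.15, adjusted p = 3.28e-07). BLM had 7.55, 7.32 and 7.51, against 8.39, 8.45 and 8.52 (-0.99 ± 0.10, adjusted p = 3.54e-10), and BRIP1 differed by -0.88 ± 0.12 (adjusted p = 3.17e-07). The groups of these genes were apart. UBE2T differed by -1.08 ± 0.18 with overlapping arrays, and its call ended where only these groups were fitted (adjusted p = 0.0850). The doses of the agents were single ones and were not matched for damage or survival in the labels.

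Smoke extract added to cisplatin left 15 genes lower and 0 higher at 24 h, where 14.1% of all genes were called lower and 14.6% higher. GEN1 led again, with 8.26, 8.58 and 8.52 in cells given cisplatin plus smoke extract, against 9.25, 9.02 and 9.43 with cisplatin alone (-0.78 ± 0.13, adjusted p = 1.14e-05). RAD51AP1 had 6.63, 7.13 and 7.07, against 7.61, 7.49 and 7.85 (-0.71 ± 0.15, adjusted p = 0.000936). FANCM, the translocase that anchors the core complex, differed by -0.68 ± 0.17 (adjusted p = 0.00334) and FANCB by -0.63 ± 0.14 (adjusted p = 0.000961). No array with smoke extract overlapped the cisplatin arrays in these 4 genes. Nicotine added to cisplatin left 5 genes lower and 0 higher (9.56% and 8.25% of all genes): ERCC4, the XPF nuclease, with 7.13, 7.14 and 7.31, against 7.82, 7.60 and 7.94 (-0.60 ± 0.13, adjusted p = 0.00653), FANCM (-0.59 ± 0.17), GEN1 (-0.36 ± 0.13), BARD1 (-0.34 ± 0.10) and FANCI (-0.25). Both comparisons moved with the silent-family mean, which was 4.98 to 5.11 in the arrays of cisplatin plus smoke extract and 5.00 to 5.05 in those of cisplatin plus nicotine, against 4.70 to 4.94 in the cisplatin arrays; its part in the result was not tested. With that mean as a covariate, 4 genes were called for smoke extract and 0 for nicotine; GEN1 was among the 4, at -0.50, while RAD51AP1 (adjusted p = 0.0588), FANCM (adjusted p = 0.181) and FANCB (adjusted p = 0.0582) were not. Without replicate 3 of cisplatin the counts were 9 and 0, and the nicotine count was 12 without replicate 2 of cisplatin.

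Nicotine alone called 0 of 31 genes at 2 h, where 0 of all genes were called, and 0 at 24 h (0.00543% of all genes). An unadjusted p under 0.05 was found for 0 and 2 of the 31, against 109 and 1074 of all 18417 genes. FANCC (0.12) and EME1 (-0.09) had the smallest p at 2 h. At 24 h ERCC1 differed by -0.18 ± 0.08 and ERCC4 by -0.27 ± 0.13 (limma, adjusted p = 0.814 and adjusted p = 0.838). Averaged over the therapies nicotine called 0 genes at 2 h, with 0 at an unadjusted p under 0.05 and RAD54B (0.10) and FANCC (0.07) nearest, and 1 at 24 h, ERCC4, lower by 0.33 ± 0.08 (adjusted p = 0.00808; 4.43% of all genes called lower and 0.782% higher). The ERCC4 call ended where only the compared groups were fitted (adjusted p = 0.0726), and the count was 8 without replicate 1 of radiation plus nicotine.

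The remaining genes of DNA repair and replication were counted for comparison. At 24 h after radiation alone, 15 of 39 other recombination and crosslink repair genes were lower and 3 higher, led by UHRF1 (-1.24 ± 0.09), the helicase-nuclease DNA2 (-0.97 ± 0.10) and the nuclease DCLRE1B (-0.71 ± 0.10). Replication and G1/S genes were lower in 41 of 44 cases and higher in 0, with a median of -0.71 and the cyclin CCNE2 fell by 1.91, the reductase subunit RRM2 by 1.64 and the checkpoint adaptor CLSPN by 1.38. End joining, which needs no sister chromatid, had 6 of 15 genes lower and 1 higher, and mismatch repair had 2 of 5 lower. Nucleotide excision repair had 3 of 14 lower and 2 higher, and the higher ones were the damage sensors DDB2 (2.07-fold) and XPC (1.93-fold), known p53 targets. With smoke extract added to radiation, 9 of 39 other recombination genes and 39 of 44 replication genes were lower, against 0 of 15 end joining genes, 1 of 14 excision repair genes and 0 of 5 mismatch repair genes. The interaction of radiation and smoke extract was called lower for 23 of 44 replication genes and 3 of 39 other recombination genes. Falls of the replication genes thus stood beside those of the recombination and Fanconi genes; the share of cells in S phase was not measured, and its part in the falls was not tested.

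**Figure D5:**
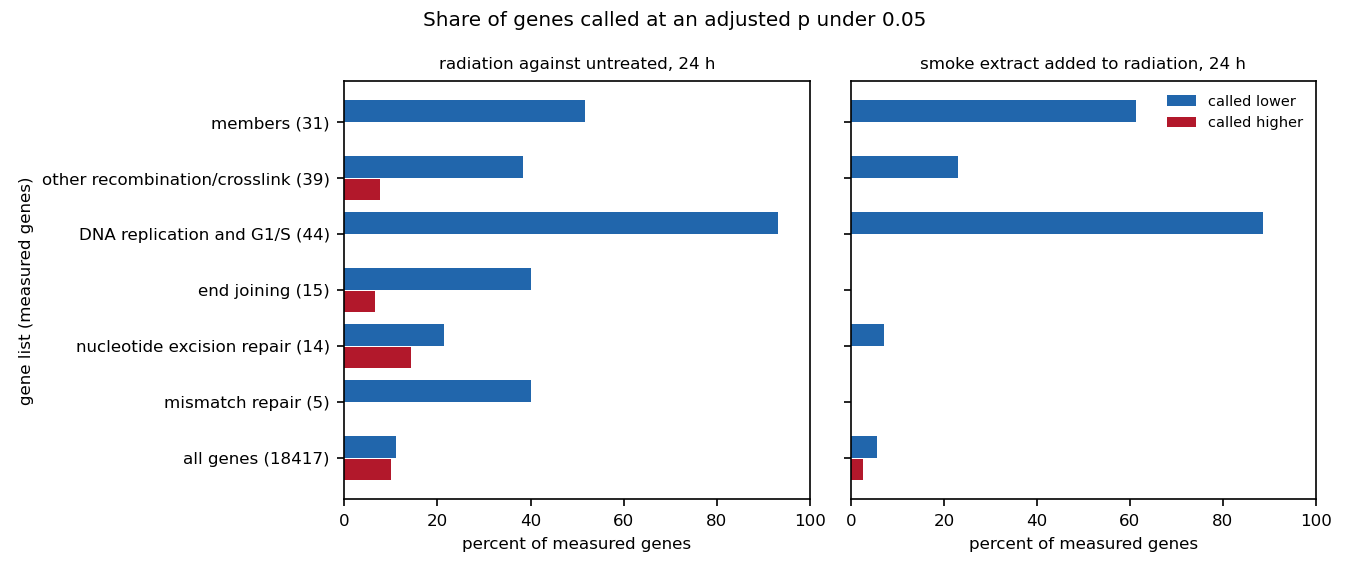
Percent of measured genes called lower (blue) and higher (red) at 24 h for the 31 recombination and Fanconi genes, 5 other lists and all genes, for radiation against untreated cells and for smoke extract added to radiation. Replication and G1/S genes have the longest bars in both panels (41 and 39 of 44), followed by the 31 genes (16 and 19).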

How the data were processed

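RNA of 54 NCI-H460 cultures was hybridised to one-colour Affymetrix arrays. The deposited table holds 33297 probe-set rows, which the authors made with Affymetrix Power Tools 1.15.0, per the submitters' processing notes; summarization and normalization are not given in the sources used here, and the deposited values were taken to be log2. They were used without further normalization. The annotation gave 19460 clusters 1 symbol, 1754 several and 12083 none.

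The row with the highest mean was kept per symbol (18417 genes). All 18 groups were fitted together in limma 3.58.1 (R 4.3.3; lmFit, eBayes with intensity trend, 36 residual degrees of freedom), with Benjamini-Hochberg adjustment over all genes. The procedure was tested on simulated data. The members and lists were chosen with earlier results of these data known. Array values are given for the 10 called genes with the largest change after radiation at 24 h and any called higher, for the 6 with smoke extract, and for up to 4 in other comparisons; with no call, the 2 smallest p are given. Arrays outside this rule are given for FANCF and EXO1 after radiation, UBE2T with smoke extract added to radiation, and RAD52 in smoke extract cells. FANCF was added after its values were seen.

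Same-numbered arrays did not deviate together in the median (r 0.016, from -0.73 to 0.73), so replicate numbers were not used as pairs. Per the labels' protocols the 54 pellets came from culture wells of 1 line treated concurrently, with the plate of each well not given, so p-values measure the spread between such wells, and 3 arrays per group limit the precision. Alternatives were quantile normalization, no intensity trend, all rows, genes above the median, the silent-family mean as a covariate, a replicate block, the compared groups alone and leaving out arrays. Promoter windows came from RefSeq.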

Additional observations from a re-analysis of the deposited data

Results flagged for a closer look

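A difference between effects that passed its own test set apart 23 results, all of them falls that were larger in 1 setting than in another. The gap test for a sample far from the others needs 4 or more samples and was not applied to the groups of 3 arrays.

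The change after radiation at 24 h was more negative in smoke extract cells than in cells with no pretreatment for 11 genes. The interaction was -0.99 for BLM, -0.92 for FANCI, -0.76 for FANCB, -0.75 for BRIP1, -0.70 for EME1, -0.66 for XRCC2, -0.59 for EXO1, -0.59 for BARD1, -0.57 for RAD54L, -0.52 for FANCC and -0.43 for FANCG. RAD54L and FANCG lay close to the threshold (limma, adjusted p = 0.0446 and adjusted p = 0.0479).

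The change after radiation was more negative at 24 h than at 2 h for 12 genes. The difference was -1.54 for UBE2T, -1.13 for RAD51AP1, -0.89 for XRCC2, -0.78 for BLM, -0.76 for RAD54L, -0.73 for BRIP1, -0.65 for USP1, -0.55 for BARD1, -0.54 for EXO1, -0.52 for BRCA1, -0.49 for XRCC3 and -0.48 for FANCI. Both tests use the same radiation and untreated arrays of 24 h.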

How the results depend on the processing

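Counts of called genes among the 31 kept within 1.5 times in 533 of 605 recomputed values, and the cause of each change was not tested. Single genes were followed only where the rule for array values picked them in a comparison. Of their values, 1573 kept their state, 77 lost a call, 19 gained one and 0 changed direction. The 1573 include genes that were not called and stayed so. Other calls in the text, such as FANCL after radiation and RAD54L and FANCG in the interaction, were not followed singly. Genes near the silent-family level and 3 arrays per group limit what can be seen.

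Without the intensity trend, and with all rows, untreated cells over time had 0 genes called instead of 1. Quantile normalization gave 1 for cisplatin at 24 h (0 in the main setting), 1 for smoke extract at 2 h (0), 2 for nicotine added to cisplatin (5) and 2 for untreated time (1). Genes above the median mean, which leaves RAD54L, FANCB and FANCM untested, gave 1 for radiation at 2 h (0), 1 for cisplatin at 24 h (0), 3 for nicotine averaged at 24 h (1) and 2 for untreated time (1). The silent-family covariate gave 1 for radiation at 2 h, 3 for cisplatin at 24 h, 2 for smoke extract at 2 h, 3 for radiation averaged at 2 h (1), 4 for smoke extract added to cisplatin (15), 0 for nicotine added to cisplatin (5), 8 for smoke extract against nicotine (5) and 17 for the interaction (11).

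With the replicate block, smoke extract at 2 h had 1 gene and untreated time 2; the interaction had 10, and the block moved no other count by over 1.5 times. Of 459 pairs of same-numbered arrays, 156 correlated above 0.1, and the matching count for other-numbered pairs is not given here. The median r was 0.016 for same-numbered and -0.00076 for other-numbered pairs. Shared deviations in part of the groups were not tested.

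Fitting only the compared groups gave 1 for radiation at 2 h, 7 for smoke extract at 2 h, 3 for radiation averaged at 2 h, 0 for nicotine averaged at 24 h, 12 for smoke extract added to radiation (19), 3 for nicotine added to cisplatin, 10 for radiation in nicotine cells (17), 1 for cisplatin in nicotine cells (0), 1 for smoke extract against nicotine (5), 6 for the interaction (11) and 12 for untreated time. Leaving out together the 4 arrays that stood apart, an alternative chosen after seeing the data, gave 1 for radiation at 2 h, 2 for cisplatin at 24 h, 3 for smoke extract at 2 h, 2 for radiation averaged at 2 h, 6 for cisplatin averaged at 24 h (3), 13 for nicotine added to cisplatin, 1 for cisplatin in smoke extract cells (0), 3 for smoke extract against nicotine and 5 for untreated time.

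Leaving out 1 array at a time gave 0 to 1 for smoke extract at 2 h, 0 to 1 for radiation averaged at 2 h, 0 to 0 for untreated time, 0 to 1 for cisplatin at 24 h, 3 to 5 for smoke extract at 24 h (6), 1 to 8 for nicotine averaged at 24 h, 5 to 12 for the interaction, 0 to 2 for cisplatin in nicotine cells, 1 to 9 for smoke extract against nicotine, 9 to 16 for smoke extract added to cisplatin and 0 to 12 for nicotine added to cisplatin. The counts for radiation at 24 h ran from 13 to 17, those for smoke extract added to radiation from 16 to 19 and those for radiation in smoke extract cells from 21 to 24.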
